A study of Homo sapiens with 9 samples.

Results

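The chromatin accessibility of 4 genes encoding transcriptional repressors, BCL6, BACH2, PRDM1 and PRDM8, was described in the Jurkat line, leukaemic human T cells propagated from 1 clone (E6-1). The peaks of 4 lists were merged wherever they overlapped or touched, which gave 40703 regions on the autosomes, X and Y. A region was assigned to a gene if it lay in the gene body or within 50 kb of the transcription start site (TSS) of the canonical transcript in GENCODE 44 on GRCh37. By this rule 39 regions belonged to the 4 genes, of which 25 lay at BACH2, 5 at BCL6, 5 at PRDM1 and 4 at PRDM8. Accessibility had been measured by FAIRE-seq, in which DNA free of nucleosomes is recovered from fixed chromatin and sequenced, and each peak carried its fold enrichment over total input, sonicated genomic DNA of the same cells. The series has 9 samples, and the 5 others were not analysed here.

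By their labels the lists came from non-stimulated cells (NS) and from cells after stimulus withdrawal (SW), each with DMSO as vehicle or with rottlerin, an inhibitor of protein kinase C isoforms. Rottlerin was given at 15 uM for 1 h before stimulation. The SW cells were stimulated for 4 h with PMA and ionomycin, which mimic signalling from the T cell receptor, then washed and cultured for 1 day. Every label had 1 library, so no test between lists was possible and all values are descriptions of these libraries. The peak lists do not give sequencing depth, and a region without a peak was one not called at the depth of its library.

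The labels and the methods of the study differ on what the lists hold. In the methods, peaks were called on the DMSO samples alone, 1 for each of the NS, stimulated, SW and re-stimulated states, whereas the labels place 2 of the 4 lists with rottlerin. Merging the 4 lists, with unplaced contigs and the mitochondrial genome, gave 40731 regions. That the merged set has the size of the set in the methods leaves the labels of the lists in doubt. The length of the stimulation also differs between the labels and the methods. Each list is therefore named by its label alone, and no direction between states and no effect of rottlerin was drawn. The lists held 18977 peaks (NS DMSO), 20132 (SW DMSO), 23835 (NS rottlerin) and 30409 (SW rottlerin), with median fold enrichments of 4.05, 4.03, 4.08 and 4.03. As a check of the cell type, 6 of 8 T cell genes had a peak within 1 kb of the TSS in at least 1 list, against 0 of 5 B cell genes and 0 of 4 myeloid genes. CD3D, CD3E, CD28 and PTPRC had one in all 4 lists, while CD2 and LCK had none.

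BCL6 is a BTB zinc finger repressor that directs T follicular helper and germinal centre B cell fates by recruiting co-repressors such as NCOR and BCOR. BACH2 is a bZIP repressor that pairs with small MAF proteins, binds AP1-like sites and restrains effector differentiation of T cells. PRDM1 (Blimp-1) is a PR domain zinc finger repressor that drives effector and plasma cell differentiation and is mutually antagonistic with BCL6, and BACH2 represses PRDM1. PRDM8 belongs to the same PR domain family and is best known from the nervous system and retina.

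Regions are named by their gene and the distance of their midpoint from the TSS, negative upstream and positive in the direction of transcription. The sequences of 7 regions are given first because each had a peak in the SW DMSO, NS rottlerin and SW rottlerin lists and none in the NS DMSO list. The other 2 regions of this class lie over the 5′ untranslated exons of BCL6 and BACH2 and are described by their values only. Each sequence is the central 300 bp on the plus strand of GRCh37, and capitals mark matches on either strand to the consensus letters of 7 factors or families. The AP1 letters were TGANTCA, bound by FOS and JUN proteins. For BACH2 paired with a small MAF protein the letters TGCTGA were used, and for BCL6 the letters TTCNNNGAA. PRDM1 was searched as GNGAAAG, the ETS family as CCGGAA, zinc finger factors of the GATA family as the letters AGATAA, and the RUNX family as TGTGGT.
BCL6 -32.1 kb, chr3:187495168-187495467: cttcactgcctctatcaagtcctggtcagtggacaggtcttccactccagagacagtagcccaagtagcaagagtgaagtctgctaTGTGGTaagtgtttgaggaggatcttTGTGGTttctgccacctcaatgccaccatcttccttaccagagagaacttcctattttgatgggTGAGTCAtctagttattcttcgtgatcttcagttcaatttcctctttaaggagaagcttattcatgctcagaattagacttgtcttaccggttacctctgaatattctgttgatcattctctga
BACH2 +12.0 kb, chr6:90994395-90994694: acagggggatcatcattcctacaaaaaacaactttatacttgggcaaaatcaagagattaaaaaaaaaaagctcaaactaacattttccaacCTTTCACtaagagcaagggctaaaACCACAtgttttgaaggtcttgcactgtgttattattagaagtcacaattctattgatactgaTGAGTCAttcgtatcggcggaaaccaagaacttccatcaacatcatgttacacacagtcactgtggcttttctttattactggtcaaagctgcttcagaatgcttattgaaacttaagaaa
BACH2 +139.8 kb, chr6:90866619-90866918: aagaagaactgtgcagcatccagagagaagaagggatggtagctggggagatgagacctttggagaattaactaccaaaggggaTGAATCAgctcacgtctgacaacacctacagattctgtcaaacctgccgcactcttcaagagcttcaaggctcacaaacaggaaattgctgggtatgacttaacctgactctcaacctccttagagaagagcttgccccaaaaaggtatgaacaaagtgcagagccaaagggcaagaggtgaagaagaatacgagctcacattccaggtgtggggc
BACH2 +212.6 kb, chr6:90793772-90794071: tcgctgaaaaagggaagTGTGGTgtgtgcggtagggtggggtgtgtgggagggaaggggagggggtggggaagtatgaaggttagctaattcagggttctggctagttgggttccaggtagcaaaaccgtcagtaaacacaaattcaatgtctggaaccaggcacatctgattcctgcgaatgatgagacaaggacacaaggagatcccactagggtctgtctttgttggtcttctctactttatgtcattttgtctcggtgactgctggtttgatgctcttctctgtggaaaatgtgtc
BACH2 +251.8 kb, chr6:90754594-90754893: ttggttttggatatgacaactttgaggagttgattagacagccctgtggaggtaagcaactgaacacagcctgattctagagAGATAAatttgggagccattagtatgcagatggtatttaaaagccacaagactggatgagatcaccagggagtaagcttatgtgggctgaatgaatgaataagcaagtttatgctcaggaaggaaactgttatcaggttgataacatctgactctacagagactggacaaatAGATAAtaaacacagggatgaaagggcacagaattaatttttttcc
PRDM8 -23.9 kb, chr4:81094572-81094871: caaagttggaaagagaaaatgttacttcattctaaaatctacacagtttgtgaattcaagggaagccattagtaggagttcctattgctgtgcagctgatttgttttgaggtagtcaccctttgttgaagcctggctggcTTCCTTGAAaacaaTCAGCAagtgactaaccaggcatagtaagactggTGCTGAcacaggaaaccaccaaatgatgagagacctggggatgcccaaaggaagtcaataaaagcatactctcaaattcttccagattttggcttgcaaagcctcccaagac
PRDM8 -15.1 kb, chr4:81103392-81103691: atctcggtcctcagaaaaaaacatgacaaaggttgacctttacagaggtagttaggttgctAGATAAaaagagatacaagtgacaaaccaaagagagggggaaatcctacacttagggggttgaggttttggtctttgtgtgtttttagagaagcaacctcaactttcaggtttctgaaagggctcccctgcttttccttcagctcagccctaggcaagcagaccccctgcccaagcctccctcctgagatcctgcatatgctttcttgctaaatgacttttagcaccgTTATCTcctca
An AP1 match was present in BCL6 -32.1 kb, BACH2 +12.0 kb and BACH2 +139.8 kb, and the other sequences above held none. A BCL6 match was present in PRDM8 -23.9 kb and in BCL6 -0.2 kb of the same class. Also given is the strongest region at PRDM1, which lies in introns of both PRDM1 and ATG5 and had a peak in all 4 lists. It holds a BCL6 match and none for AP1. BACH2 +270.9 kb, with a peak in the SW DMSO and SW rottlerin lists only, holds 3 AP1 matches and likewise a BCL6 match.
PRDM1 +11.6 kb, chr6:106545648-106545947: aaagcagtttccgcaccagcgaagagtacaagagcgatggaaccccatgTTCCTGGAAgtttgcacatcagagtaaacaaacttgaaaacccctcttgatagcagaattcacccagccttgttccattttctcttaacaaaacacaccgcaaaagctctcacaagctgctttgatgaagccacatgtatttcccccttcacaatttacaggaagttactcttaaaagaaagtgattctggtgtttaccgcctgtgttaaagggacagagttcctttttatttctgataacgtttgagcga
BACH2 +270.9 kb, chr6:90735502-90735801: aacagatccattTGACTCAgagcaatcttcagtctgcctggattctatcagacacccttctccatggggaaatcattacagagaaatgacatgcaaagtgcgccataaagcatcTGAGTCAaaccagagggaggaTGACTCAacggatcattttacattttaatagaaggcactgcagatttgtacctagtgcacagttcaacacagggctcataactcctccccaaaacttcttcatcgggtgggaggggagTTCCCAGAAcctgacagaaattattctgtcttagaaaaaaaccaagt

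BCL6 (chr3:187439165-187463513, minus strand, ENSG00000113916) had 5 regions, and 4 of them had no peak in the NS DMSO list (all regions 53.5%). BCL6 -0.2 kb (chr3:187463160-187463660), over the TSS and the 5′ untranslated exon, had fold enrichments of 2.70 (SW DMSO), 2.82 (NS rottlerin) and 2.99 (SW rottlerin) and no NS DMSO peak. These were weak peaks, since only 1.4%, 3.0% and 6.7% of the peaks of those lists had a lower value. BCL6 -32.1 kb (chr3:187495172-187495463), in intergenic sequence with BCL6 as the nearest coding TSS, had values of 3.49, 3.77 and 2.97 in the same lists and again no NS DMSO peak. Both primers that the study used for FAIRE-PCR of a BCL6 enhancer matched exactly inside this region, and its chromosome conformation capture primer for the distal element overlapped the region too. The anchor primer of that assay matched at BCL6 -0.2 kb.

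The highest value at BCL6 was 4.78, in the SW rottlerin list at BCL6 -24.8 kb (chr3:187487873-187488325, intergenic), where the NS rottlerin list had 3.32 and both DMSO lists had no peak. In an intron, BCL6 +5.4 kb had a peak in the SW rottlerin list alone (3.11). The region next to it, BCL6 +6.5 kb (chr3:187456676-187456897), was the only BCL6 region with a peak in all 4 lists, at 3.60 (NS DMSO), 3.57 (SW DMSO), 3.79 (NS rottlerin) and 4.00 (SW rottlerin). Its values thus ran from 3.57 to 4.00, with the SW rottlerin list highest.

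BACH2 (chr6:90636247-91006562, minus strand, ENSG00000112182) spans 370.3 kb and had 25 regions, more than 99.9% of coding genes. Corrected for the length searched, it had 5.95 regions per 100 kb, above 87.4% of coding genes. The corresponding densities were 5.00 for BCL6, 4.00 for PRDM8 and 3.50 for PRDM1. Of the BACH2 regions, 18 had no NS DMSO peak, 5 of these had a peak in each other list, and 6 regions had a peak in all 4 lists.

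BACH2 +0.2 kb (chr6:91005880-91006777), over the TSS and the 5′ untranslated exon, had values of 4.17 (SW DMSO), 3.14 (NS rottlerin) and 3.80 (SW rottlerin) with no NS DMSO peak. The reverse primer of the BACH2 promoter assay of the study matched inside this region, while its forward primer had 0 exact matches on the chromosome. In that assay BACH2 was a control, and the paper reported similar accessibility in NS cells and in SW cells after a longer rest. For BCL6 and PRDM8 it reported increases in those SW cells that were not significant. The MACS2 score of BACH2 +0.2 kb in the SW DMSO list was 95, where the score is −log10 q multiplied by 10. Of the 4644 SW DMSO peaks that scored at least as high, 370 (7.97%) lacked an NS DMSO peak. A similar position held for BACH2 +212.6 kb (chr6:90793648-90794195), with values of 5.44, 3.68 and 5.08 and an SW DMSO score of 94, where 387 of 4731 peaks (8.18%) lacked one. In the NS rottlerin and SW rottlerin lists, 19% to 33.6% of the peaks that scored at least as high as these regions lacked one. BACH2 +0.2 kb and BACH2 +212.6 kb had the lowest SW DMSO shares of the regions with a peak in each list except NS DMSO. The others of that class had SW DMSO shares of 15% (BACH2 +251.8 kb) to 32.6% (BCL6 -0.2 kb and PRDM8 -15.1 kb).

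The remaining BACH2 regions of this class lay in introns. BACH2 +251.8 kb (chr6:90754474-90755013) had 4.72 (SW DMSO), 5.12 (NS rottlerin) and 5.79 (SW rottlerin), so that all of these lists placed it above 74.3% or more of their peaks. BACH2 +12.0 kb (chr6:90993968-90995121) had 3.93, 3.01 and 4.90, and BACH2 +139.8 kb (chr6:90866650-90866888) had 3.11, 3.17 and 3.65. The neighbour of the former, BACH2 +10.7 kb, lacked a peak in a different list, with 4.95 (NS DMSO), 3.71 (SW DMSO), no peak (NS rottlerin) and 4.42 (SW rottlerin). The list without a peak thus differed between neighbouring intronic regions.

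The highest value of all 4 genes was at BACH2 +21.9 kb (chr6:90984006-90985285, intron), with 5.37 (NS DMSO), 6.08 (SW DMSO), 5.07 (NS rottlerin) and 7.27 (SW rottlerin). The last of these exceeded 98.0% of the SW rottlerin peaks. BACH2 +344.1 kb (chr6:90662004-90662855), near the 3′ end of the gene and inside the annotated gene ENSG00000226455 as well, had 3.95, 5.73, 6.61 and 6.24. Here the NS DMSO list was the lowest, whereas at BACH2 +201.2 kb the NS rottlerin list was lowest (5.17, 5.36, 3.78 and 6.34). The widest region, BACH2 +216.8 kb at 2970 bp, had 2.91, 3.80, 3.06 and 3.98. At BACH2 +62.6 kb both DMSO lists were low and both rottlerin lists high (3.23, 3.25, 4.79 and 5.28), and at BACH2 +29.6 kb the lists were close together (3.45, 3.57, 3.75 and 3.43). BACH2 +223.9 kb had a peak in the rottlerin lists only (3.29 and 3.15), and BACH2 +270.9 kb in the SW lists only (3.93 and 3.33). Of the other BACH2 regions, 11 had a peak in 1 list, 8 of them in the SW rottlerin list (2.84 to 5.53), 2 in the SW DMSO list (2.98 and 3.72) and 1 in the NS rottlerin list (3.62). The 8 were 32% of the BACH2 regions, and 18.2% of all regions were in the SW rottlerin list alone.

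PRDM1 (chr6:106441338-106557814, plus strand, ENSG00000057657) had 5 regions, and the NS DMSO list had a peak in 4 of them (all regions 46.5%). PRDM1 -0.1 kb (chr6:106534004-106534248), at the TSS, had 3.01 (NS DMSO) and 3.39 (SW rottlerin) and no peak in the SW DMSO and NS rottlerin lists. All 5 regions lie in introns of ATG5, an autophagy gene on the opposite strand, so their position does not assign them to PRDM1 alone. PRDM1 +11.6 kb (chr6:106545602-106545993, in introns of PRDM1 and ATG5) had the highest value at the gene, with 6.17 (NS DMSO), 5.39 (SW DMSO), 5.53 (NS rottlerin) and 6.16 (SW rottlerin). Its midpoint lay 683 bp from the TSS of another PRDM1 transcript. PRDM1 -29.7 kb (chr6:106504329-106504598, likewise in introns of both genes) had 5.42, 4.06, 4.91 and 4.60. At both of these regions the NS DMSO list had the highest value. The opposite order was seen at PRDM1 +31.4 kb, where the NS DMSO list had the lowest (3.32, 3.70, 4.47 and 4.70). This region and PRDM1 +27.1 kb (4.03 in NS rottlerin and 3.68 in SW rottlerin, no peak in either DMSO list) lie past the 3′ end of PRDM1.

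PRDM8 (chr4:81105033-81125483, plus strand, ENSG00000152784) had 4 regions and no NS DMSO peak in any of them. None lay within 1 kb of the canonical TSS. PRDM8 -23.9 kb (chr4:81094612-81094832, intergenic) had similar values in the other lists, 4.22 (SW DMSO), 4.04 (NS rottlerin) and 4.23 (SW rottlerin), and contained the reverse primer of the PRDM8 enhancer assay of the study, while the forward primer lay outside it. PRDM8 -15.1 kb (chr4:81103299-81103784), 1491 bp from the nearest TSS of another PRDM8 transcript, had 3.41, 3.45 and 5.21, the last being the highest value at the gene. PRDM8 -13.2 kb (chr4:81105275-81105681), 22 bp from an alternative TSS, had a peak in the rottlerin lists only (3.26 and 3.10), and PRDM8 +4.6 kb, in an exon, had one in the SW rottlerin list only (3.79). Among coding genes with exactly 4 regions, 152 of 2375 (6.4%) likewise had no NS DMSO peak.

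**Figure D1:**
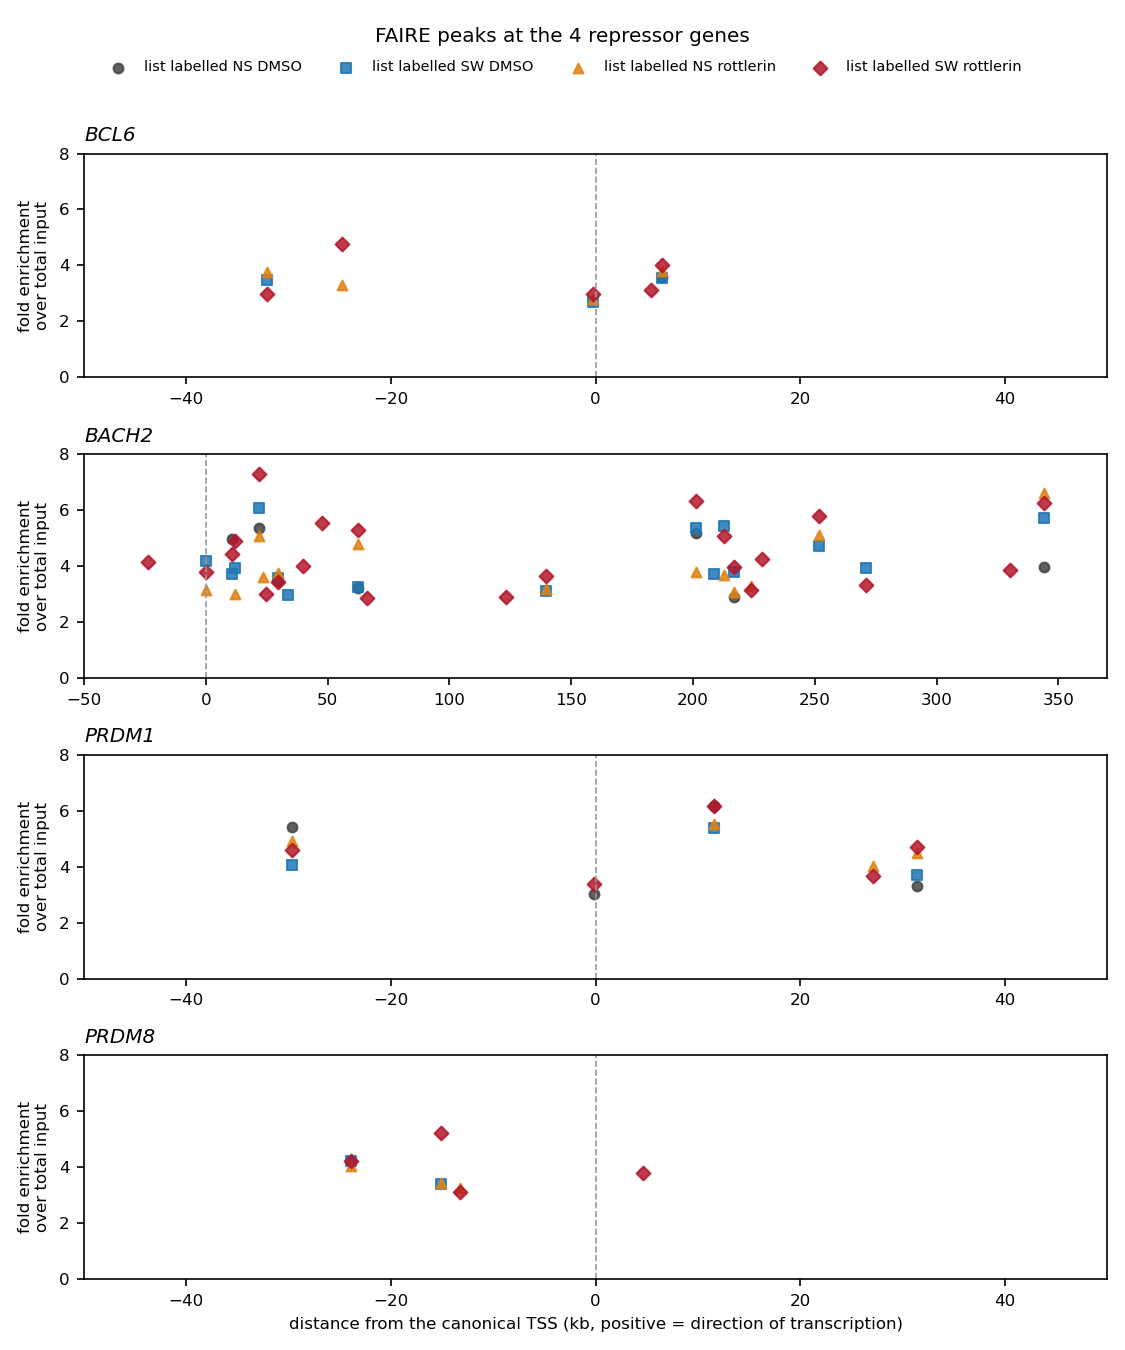
Fold enrichment over total input (vertical axis) of each merged region in each list, against the distance of the region from the canonical TSS (horizontal axis, kb), with 1 panel per gene and 1 marker shape and colour per list. The dashed line marks the TSS; NS DMSO circles are missing from the PRDM8 panel and present once in the BCL6 panel, at +6.5 kb, and BACH2 +21.9 kb reaches the highest value, 7.27.

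**Figure D2:**
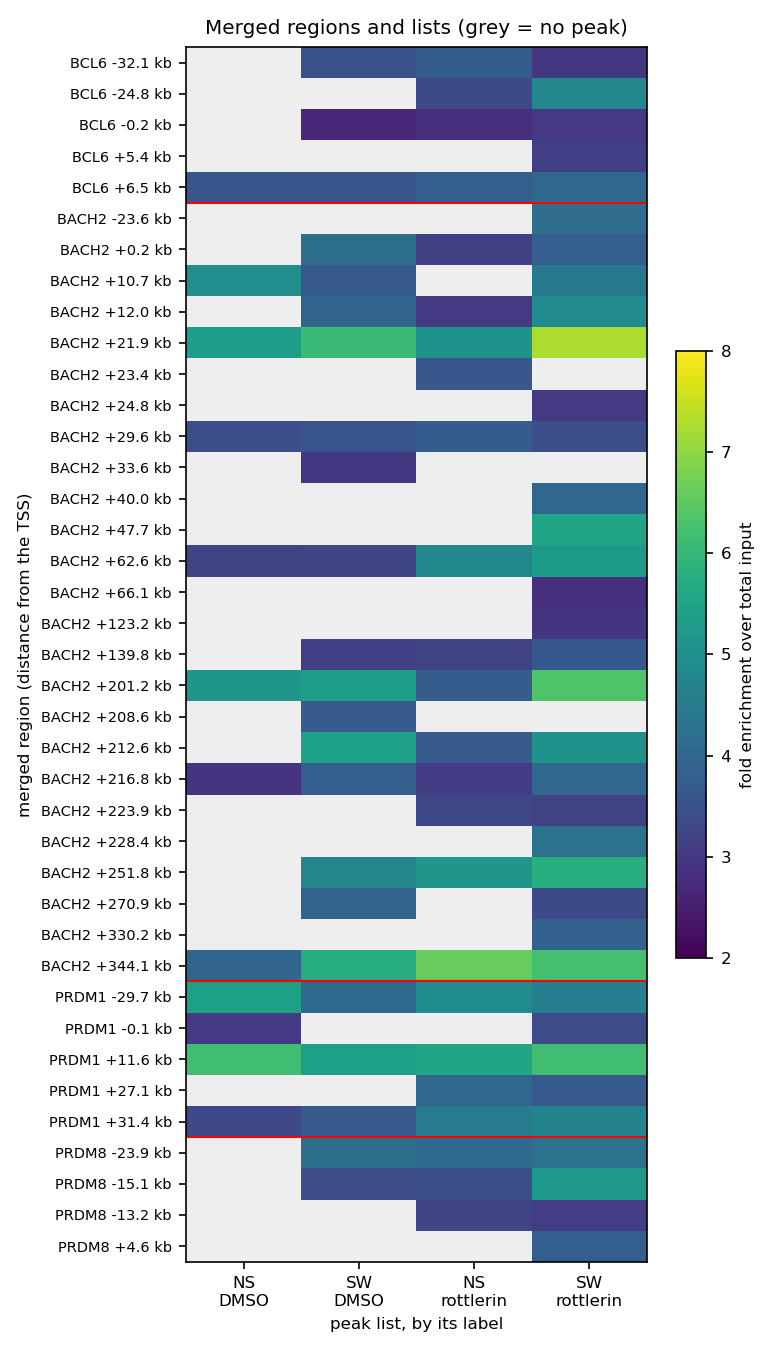
Fold enrichment over total input (colour) of the 39 merged regions (rows, ordered by position within each gene, red lines between genes) in the 4 lists (columns), with grey where the list had no peak. The NS DMSO column is coloured in 12 rows and the SW rottlerin column in 36.

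Across the 39 regions, the NS DMSO list had a peak in 12 (30.8%), the SW DMSO list in 23 (59%), the NS rottlerin list in 24 (61.5%) and the SW rottlerin list in 36 (92.3%). Of all 40703 regions, the same lists had a peak in 46.5%, 49.3%, 58.4% and 74.5%. Pooled, the 39 regions thus fell below all regions in the NS DMSO list and close to them in the NS rottlerin list. They lay above them in the SW DMSO and SW rottlerin lists. PRDM1 went the other way in the NS DMSO list, with a peak in 4 of its 5 regions (80%). A peak was missing from the NS DMSO list at 27 regions (69.2%) against a background of 53.5%. With a peak in each other list besides, there were 9 regions (23.1%) against 7.08%, of which 5 lay at BACH2, 2 at BCL6, 2 at PRDM8 and 0 at PRDM1. The share with a peak in all 4 lists was near the background, at 10 regions (25.6%) against 26.6%. No region was in the NS DMSO list alone (0 of 39, background 7.83%), and 10 (25.6%, background 18.2%) were in the SW rottlerin list alone.

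The lists differ in length, and the NS DMSO list is the shortest. With the 18977 highest-scoring peaks of every list, 19 of 31 regions (61.3%) lacked an NS DMSO peak against 41.5% of all regions. A peak in each list except NS DMSO was left at 5 of the 31, down from 9 of 39, against 5.67% of all regions. Without the SW rottlerin list, an alternative chosen after seeing the data, 17 of 30 (56.7%) lacked an NS DMSO peak against 43.3%. The regions of a gene share their locus, and BACH2 supplied 25 of the 39, so that these shares are not 39 independent observations.

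**Figure D3:**
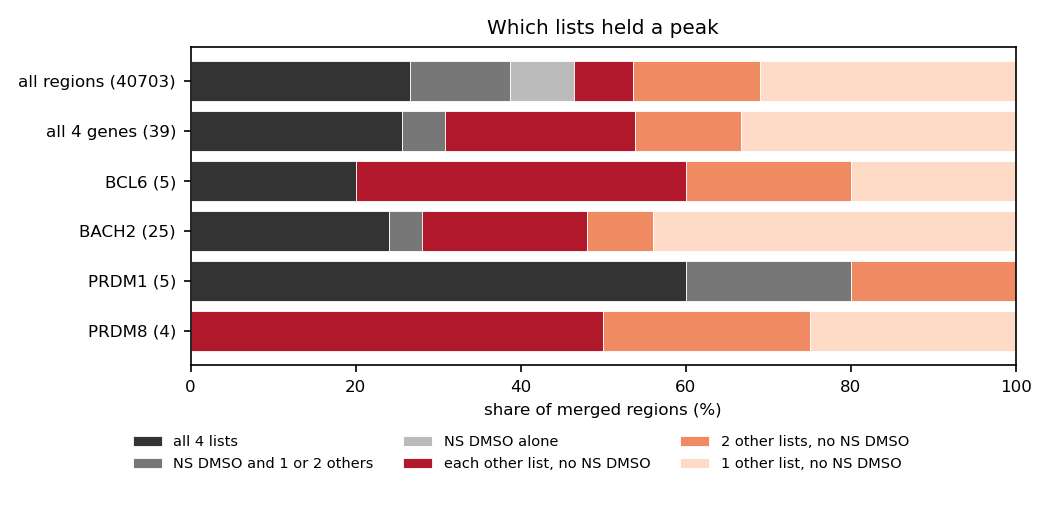
Share of merged regions (horizontal axis, %) by the lists that held a peak, for all regions, the 4 genes together and each gene, with the number of regions in parentheses. Red shades are regions without an NS DMSO peak and grey shades regions with one; PRDM8 is red throughout, and PRDM1 is grey in 4 of 5 regions.

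Within 1 kb of the TSS, BCL6 and BACH2 shared the pattern of a peak in each list except NS DMSO, which 493 of 9542 coding genes with a TSS region had (5.17%). At the canonical TSS, PRDM1 had a peak in the NS DMSO and SW rottlerin lists, and PRDM8 had none. Other annotated TSSs of these genes differed. PRDM1 +11.6 kb, 683 bp from one, had a peak in all 4 lists. PRDM8 -13.2 kb, 22 bp from one, had a peak in the rottlerin lists only.

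The fold enrichment was compared between lists at the 10 regions with a peak in all 4. It was higher in each other list than in the NS DMSO list at 4 of them (BACH2 +344.1 kb, BACH2 +216.8 kb, BACH2 +62.6 kb and PRDM1 +31.4 kb), against 32.2% of all 10841 such regions. The SW rottlerin list exceeded the NS DMSO list at 7 of 10, near the background of 67.1%. The median ratio to the NS DMSO list was 1.035 (SW DMSO), 1.052 (NS rottlerin) and 1.290 (SW rottlerin), where all such regions had 0.985, 1.039 and 1.077. The largest ratio was 1.68, at BACH2 +344.1 kb in the NS rottlerin list, and the smallest was 0.73, at BACH2 +201.2 kb in the same list. The middle 90% of all such regions ran from 0.78 to 1.42 in that list, and both values, picked as the extremes, lay outside it. The peaks behind them differed in width. At BACH2 +344.1 kb the peak had 810 bp (NS DMSO) and 372 bp (NS rottlerin), and at BACH2 +201.2 kb 350 bp and 917 bp. A bearing of peak width on these ratios was not tested. PRDM1 -29.7 kb (0.75, 0.91 and 0.85) and PRDM1 +11.6 kb (0.87, 0.90 and 1.00) were the only regions of the 10 that were above the NS DMSO value in no other list.

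**Figure D4:**
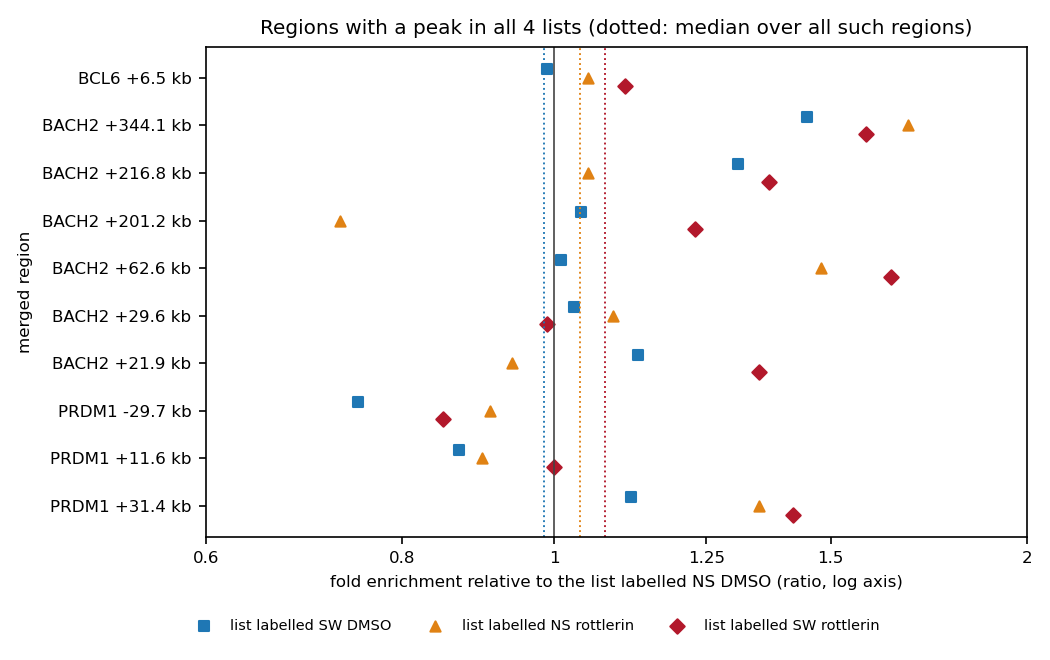
Fold enrichment in the SW DMSO, NS rottlerin and SW rottlerin lists divided by that in the NS DMSO list (horizontal axis, ratio on a log scale) for the 10 regions found in all 4 lists (rows), with dotted lines at the medians of all 10841 such regions. BACH2 +344.1 kb lies right of 1 in each list (1.45 to 1.68) and PRDM1 -29.7 kb left of it (0.75 to 0.91).

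Other genes of the families and of the T cell fate circuit were counted by the same rule. The 14 other PRDM genes had 37 regions, of which 17 (45.9%) lacked an NS DMSO peak, 3 had one in each other list and 11 had one in all 4 lists. MECOM, a PRDM gene of haematopoietic stem cells, had 10 of these regions, 5 of them without an NS DMSO peak. The 11 relatives and partners of BCL6 and BACH2 had 79 regions, of which 43 (54.4%) lacked an NS DMSO peak. BCOR, a co-repressor bound by BCL6, lacked it in 10 of 15 regions and at the TSS, with a peak there in each other list. BACH1, the paralogue of BACH2, lacked it in 5 of 6, and MAFK, a small MAF partner, in 0 of 5. In the list of 21 genes of T cell fate, 66 of 132 regions (50%) lacked it. In 3 of these genes every region lacked it, namely TBX21 (7 of 7), which encodes the Th1 factor T-bet, IRF4 (4 of 4), a factor induced by antigen receptor signalling, and FOXO1 (4 of 4), a factor of quiescent T cells. In EOMES (0 of 1) and FOXP3 (0 of 2) no region lacked it. The other genes ran from 1 of 7 at KLF2 to 7 of 8 at CXCR5, the receptor that guides follicular helper cells. These lists lay near or below the 53.5% of all regions, and the shares for single genes rest on few regions.

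Motif letters were searched on both strands in the central 300 bp of every region. In wide regions this window can miss the peak of a list. At BACH2 +216.8 kb it overlapped the SW rottlerin peak only, and at BACH2 +21.9 kb it missed the NS DMSO peak. Some letters overlap each other, as GGAAA (NFAT) can lie inside a PRDM1 match or share bases with an ETS or BCL6 match, and TGCTGA can share its last bases with TGANTCA. AP1 letters were present in 7 of 39 regions (17.9%), the same share as in all regions (17.9%). All 7 were among the 27 regions without an NS DMSO peak and none among the 10 found in all 4 lists. Of all regions in the series, AP1 letters were in 25.8% of those without an NS DMSO peak and in 9.68% of those in all 4 lists, so the same split was present across all regions and was not particular to these genes. They were BCL6 -32.1 kb, BACH2 +12.0 kb, BACH2 +47.7 kb, BACH2 +139.8 kb, BACH2 +208.6 kb, BACH2 +228.4 kb and BACH2 +270.9 kb. Of the 9 regions with a peak in each list except NS DMSO, 3 held AP1 letters, and of all regions of that class 36.7% did. The NFAT letters were in 35 regions (89.7%, all regions 71%) and the BCL6 letters in 6 (15.4%, all regions 9.53%). The other shares were 20.5% for BACH2 with MAF (all regions 21.3%), 17.9% for PRDM1 (22.8%), 7.69% for ETS (10.5%), 15.4% for GATA (21%), 30.8% for RUNX (32.8%) and 12.8% for the E-box CACCTG (21.4%). A match describes the letters in the window and not binding, and the regions of the 4 genes had a median GC content of 43.7% against 46.3% for all regions.

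The patterns of lists at the 4 genes were compared with those of other coding genes with at least 5 regions by the cosine of their counts over the 15 possible combinations of lists. For BACH2 the most similar of 5681 genes were MED12L (0.976), SHQ1 (0.963) and ARMC2 (0.962). For PRDM1 they were ZNF7 (1.000), SIX5 (0.995) and USPL1 (0.995), and for PRDM8 KRT3 (0.985), AGO2 (0.957) and TACC1 (0.957). BCL6 shared all 5 regions with the overlapping gene ENSG00000285938 and was next most similar to AGO2 (0.967), followed by ALDH4A1, EZR and KIF13B, which tied at 0.956. Apart from BACH2, the members had only 4 or 5 regions, and ZNF7 and KRT3 had 5 each. These cosines thus rest on few counts, and the similarity was not tested.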

How the data were processed

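FAIRE-seq libraries of Jurkat cells, 1 per label, were analysed from 4 peak lists on hg19 (GRCh37). Per the labels and methods, the authors trimmed reads (cutadapt), aligned them (Bowtie2), removed duplicates (Picard) and called broad peaks against total input (MACS2). Tool versions were not given in the sources used here. The deposited columns used were the score (column 5, 10 times the −log10 q without decimals), the fold enrichment over total input (column 7, a ratio) and the −log10 of p and q (largest q 0.0983).

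Peaks of all lists were merged and assigned to genes with GENCODE 44 lifted to GRCh37 (python 3.11.15, pandas 2.3.3, pysam 0.24.0), without 28 regions on unplaced contigs and the mitochondrial genome. Where a list had several peaks in a region, the highest fold enrichment was used. Depth is unknown, and no p-value was computed. Merging and assignment were tested on simulated data. The members, gene lists and motifs were chosen with earlier results of these data known. Described singly were regions at a TSS, regions in each list except NS DMSO, regions in NS DMSO alone, the highest value per gene and regions at the FAIRE primers of the study, matched on the chromosome of the gene only. Other regions, and genes named from the lists, were chosen after their values were seen. The alternatives were other peak thresholds, windows, TSS choices and a coverage minimum.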

Additional observations from a re-analysis of the deposited data

How the results depend on the processing

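A total of 130 counts were recomputed under 11 alternatives, 1 of them chosen after seeing the data, and 97 stayed within 1.5 times the reported value. Keeping touching peaks apart or requiring q of 0.05 or less moved no count beyond that. With the higher-scoring 50% of each list, the regions fell from 39 to 20 and those in all 4 lists to 2. Those without an NS DMSO peak fell to 15 (75.0%, all regions 52.1%). Regions with a peak in each list except NS DMSO fell to 2 of 20, against 6.92% of all regions. The regions per gene were then 2 (BCL6), 13 (BACH2), 3 (PRDM1) and 2 (PRDM8), and 2 (BCL6), 10 (BACH2) and 2 (PRDM8) lacked an NS DMSO peak. With the same number of peaks in each list, 5 of 31 regions had a peak in each list except NS DMSO (all regions 5.67%), and 11 BACH2 regions lacked an NS DMSO peak. A window of 25 kb left 3 PRDM1 regions, 0 without an NS DMSO peak. A window of 100 kb gave 9 PRDM1 regions (3 without) and 11 PRDM8 regions (10 without). Within 50 kb of the TSS only, without the rest of the gene body, there were 25 regions, 17 without an NS DMSO peak and 6 in all 4 lists, and BACH2 had 11, of which 8 lacked it. From the 5′ end of the gene record, PRDM8 had 7 regions, 6 of them without an NS DMSO peak, and PRDM1 had 2 without one. From any annotated TSS, PRDM1 had 9 regions (3 without) and PRDM8 had 7 (6 without). When a peak had to cover 50% of the region, 3 regions were in all 4 lists, and 2 PRDM1 regions lacked an NS DMSO peak. Without the list labelled SW rottlerin, 17 regions lacked an NS DMSO peak, 10 of them at BACH2, and the classes over 4 lists had no value. The share without an NS DMSO peak was above that of all regions in each of these alternatives (56.7% to 84.6% against 41.5% to 60.2%). A length-weighted mean changed the fold enrichment of BACH2 +216.8 kb to 2.90 (NS DMSO), 3.50 (SW DMSO) and 3.03 (NS rottlerin). No paired analysis was possible because each label has 1 library and no result comes from a test. Unknown depth and 1 library per label limit all values, and low depth and low accessibility cannot be told apart where a peak is missing.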

Other observations

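The regions of the 4 genes were wider than others, with a median of 392 bp against 294 bp for all regions. By annotation, 30 of the 39 lay in introns, 3 in intergenic sequence, 3 over 5′ untranslated exons, 2 in exons and 1 just upstream of an alternative TSS. Just beyond the windows, the next region on the side of BACH2 upstream of its TSS lay at chr6:91060691-91062065, with peaks in the SW DMSO and SW rottlerin lists only and a highest fold enrichment of 6.33. On the lower-coordinate side of PRDM8, the next region was chr4:81063635-81065173, which had a peak in each list except NS DMSO and reached 5.69. No other of these next regions had that pattern. On the higher-coordinate side of PRDM8 and of BCL6, the next region had a peak in the NS rottlerin list only (4.34 and 3.44). On the lower-coordinate side of BACH2 and of BCL6, it had peaks in the rottlerin lists only (highest 3.13 and 4.62). The next regions on both sides of PRDM1, chr6:106440347-106440605 and chr6:106589340-106589922, had a peak in all 4 lists. Next to BCL6, the closest region below lay 383.4 kb from the TSS, so that the sequence past its 3′ end held no region over a long stretch.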
